A study of Drosophila melanogaster with 42 samples.

Results

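The genes described here are 8 germ plasm, maternal and piRNA genes of Drosophila melanogaster: osk, nos, bcd, pgc, gcl, vas, aub and piwi. They were given by name and looked up by symbol in the RefSeq gene table, where all 8 were found; nos stands there as nanos (CG5637). They are 8 of 13842 protein-coding genes on the X and the autosomal arms 2L, 2R, 3L and 3R; none is X-linked, and the autosomal arms hold 11645. The study profiled whole embryos at 11-12 h (stages 13-15 of development, per the labels) and at 3-4 h (stages 5-8) with ChIP-seq, the sequencing of immunoprecipitated chromatin, and its 42 samples comprise 26 precipitates and 16 inputs. Chromatin cut by micrococcal nuclease (MNase) was precipitated for MSL2, for MOF and for acetylated lysine 16 of histone H4 (H4K16ac), with 3 samples of each per stage. Sonicated chromatin was precipitated for H4K16ac and for trimethylated lysine 36 of histone H3 (H3K36me3), with 2 samples of each per stage. The labels give neither strain nor sex for these embryos, and embryos of 11-12 h were digested with 2.9 units of MNase per g, those of 3-4 h with 0.9 units. The labels name 1 deposited list for all replicates of a group, and each of the 12 lists is therefore taken as pooling them; it holds positions only, so a stage has 1 value per gene, with no SD, no read depth and no test, and every difference below is a description of 2 lists.

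In flies the germ line is set apart by cytoplasm that the mother places at the posterior pole of the egg. Osk assembles this germ plasm and Vas and Aub are recruited to it; mRNAs such as those of nos, pgc and gcl are held there and act at the posterior or in the pole cells, while bcd mRNA is held at the opposite pole. Piwi and Aub bind piRNAs, small RNAs that silence transposons, Piwi in the nucleus and Aub in the cytoplasm. H3K36me3 is laid down along genes as they are transcribed, H4K16ac is a mark of open chromatin made by the acetyltransferase MOF, and MSL2 is the subunit that directs MOF to the male X chromosome. Pole cells are a small part of a whole embryo, and in bulk chromatin a mark carried by few cells and a weak mark in many cells cannot be told apart.

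H3K36me3 was listed over 6 of the 8 genes at 11-12 h and over the same 6 at 3-4 h: nos, pgc, gcl, vas, aub and piwi. The 2 without a region at either stage were osk and bcd. Among all autosomal protein-coding genes, 51.5% had such a region at 11-12 h and 50.8% at 3-4 h, and 48.6% had one at both. No member had a region at 1 stage only, against 2.84% of autosomal genes with one at 11-12 h alone and 2.11% at 3-4 h alone. The median share of the gene body covered was 33.7% at 11-12 h and 34.7% at 3-4 h over the 8 genes, beside 3.26% and 1.42% over all autosomal genes. Members ranged from 2614 to 12656 bp in length with a median of 3641 bp, beside a median of 2080 bp for autosomal genes; a longer gene meets a region more readily, and the part of length in these counts was not tested.

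**Figure D1:**
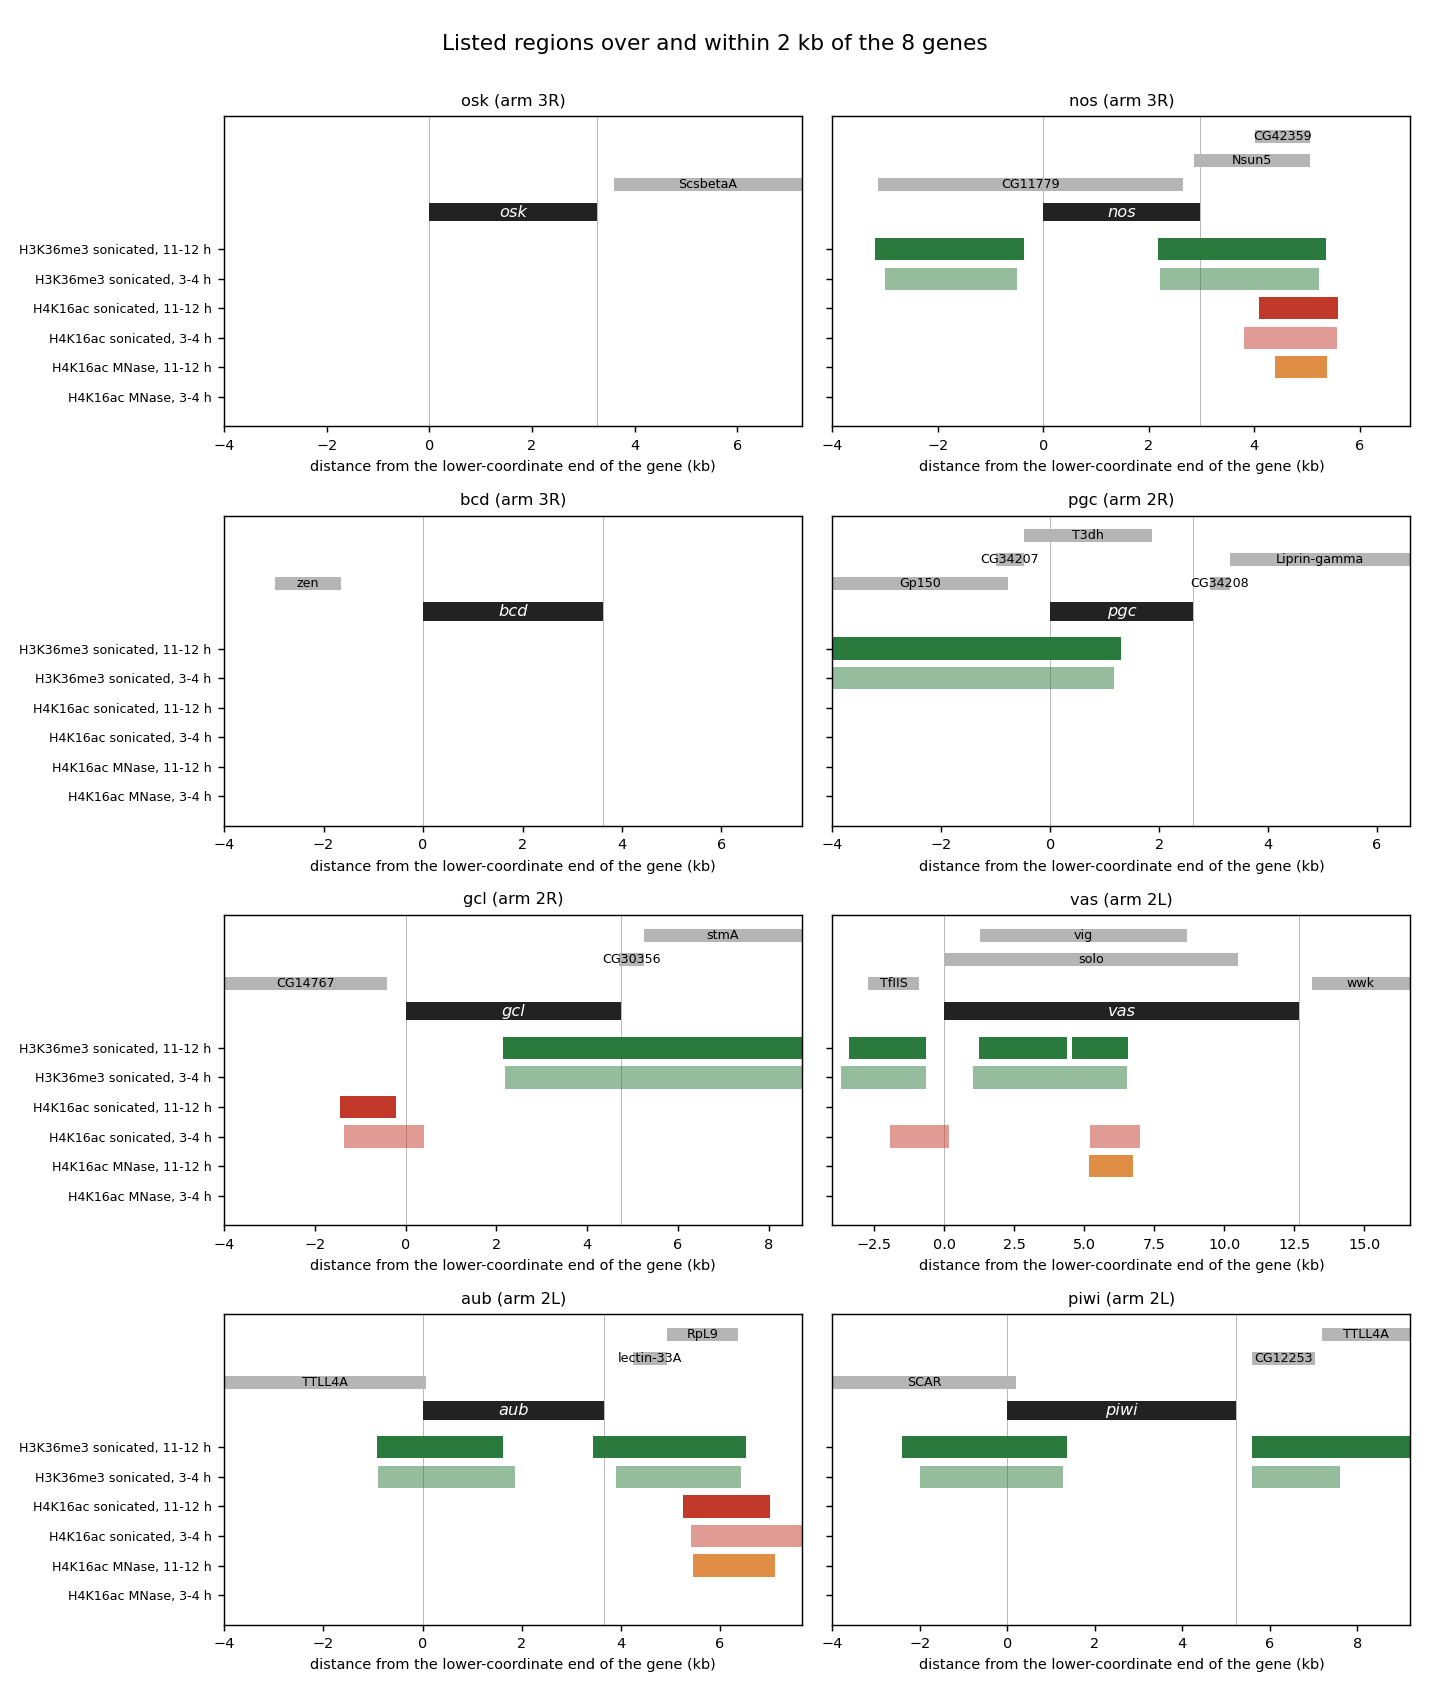
Maps of the 8 genes, with distance in kb from the lower-coordinate end of each gene on the x axis; black bars are the genes, grey bars other protein-coding genes within 2 kb, and coloured bars the listed regions over or within 2 kb of the gene, dark at 11-12 h and pale at 3-4 h, cut at the panel edge. H3K36me3 covers part of 6 genes in nearly the same place at both stages, and the osk and bcd panels hold no region.

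The gene that organises the germ plasm, osk (3R:8935126-8938395, dm6), was covered in none of the 12 lists. Its nearest H3K36me3 region lay 2168 bp away at 11-12 h, just outside the 2 kb used for nearness, and 3371 bp away at 3-4 h. That region lies in the neighbour ScsbetaA, a subunit of succinyl-CoA synthetase, whose body was 57.3% covered at 11-12 h and 29.3% at 3-4 h. H4K16ac regions were farther from osk, at 53957 bp at 11-12 h and 45293 bp at 3-4 h on sonicated chromatin. The nearest MSL2 subnucleosomal peak was 6558 bp away at 11-12 h and 41537 bp away at 3-4 h.

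The gene of the anterior morphogen Bicoid, bcd (3R:6755842-6759466), was likewise free of regions in all 12 lists. Its closest H3K36me3 region was 48298 bp away at 11-12 h and 4256 bp away at 3-4 h. The homeobox gene zen, the only other coding gene within 2 kb, had no H3K36me3 or H4K16ac at either stage. For sonicated H4K16ac the distances were 298291 bp at 11-12 h and 96994 bp at 3-4 h, and for H4K16ac on MNase chromatin 319717 and 319489 bp. A pattern with no region in any of the 12 lists, as at osk and bcd, was shared by 5078 other autosomal genes each, or 43.6%.

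The translational repressor gene nos (3R:19157238-19160202) had H3K36me3 over 26.8% of its body at 11-12 h and 25.6% at 3-4 h. The region spanned 19159409 to 19162604 at 11-12 h and 19159443 to 19162468 at 3-4 h, and most of it lay in Nsun5, a methyltransferase gene, with 794 and 760 bp in nos. nos shares 89.1% of its length with CG11779 and 3.51% with Nsun5, which leaves 220 bp to nos alone; all 220 bp lay under H3K36me3 at both stages. A further H3K36me3 region lay in CG11779, 373 bp from nos at 11-12 h and 505 bp at 3-4 h, and between these regions most of the nos body was uncovered at both stages.

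The pole cell gene pgc (2R:22330200-22332813), whose product represses transcription by RNA polymerase II in germ cells, was 49.9% covered by H3K36me3 at 11-12 h and 44.4% at 3-4 h, a difference of 5.51 points and the widest among the 8 for this mark. The region was 6240 bp long at 11-12 h and 6315 bp at 3-4 h. Its largest part, 4152 and 4371 bp, lay in Gp150, a transmembrane protein gene. pgc shares 71.7% of its length with T3dh, a dehydrogenase gene, and of the 741 bp that belong to pgc alone none was covered at either stage. The cover of pgc was thus cover of bases it shares with T3dh.

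Covered most among the 8 was gcl (2R:8724258-8728999), a gene needed for pole cell formation, with 54.8% at 11-12 h and 53.8% at 3-4 h. The region ran from 8726402 to 8733379 at 11-12 h and from 8726447 to 8733327 at 3-4 h, across the higher-coordinate part of gcl, CG30356 and stmA, so that its 2 ends differed by 45 and 52 bp between the stages. Nearly all of gcl is its own: 36 bp are shared with CG30356, and of the 4706 bp left, 2562 bp (54.4%) were covered at 11-12 h and 2517 bp (53.5%) at 3-4 h.

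The helicase gene vas (2L:15061656-15074311) is the longest of the 8 and holds vig, which encodes a protein of the RNA interference machinery, and solo, a gene of meiotic cohesion, inside its body. H3K36me3 covered 40.7% of vas at 11-12 h, in 2 regions of 3141 and 2006 bp, and 43.7% at 3-4 h, in 1 region of 5534 bp, a difference of -3.06 points that was -43.7 points when the wider 50% of the regions alone were used. The 2 regions of 11-12 h, 161 bp apart, ran from 15062909 to 15068216, and the single one of 3-4 h from 15062665 to 15068198. None of the 2178 bp that vas shares with neither vig nor solo was covered at either stage. With solo, which lies wholly within vas, set aside, 5270 bp lie outside vig, of which 22 bp were covered at 11-12 h and 266 bp at 3-4 h.

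Of the Piwi family genes, aub (2L:10997819-11001476) was 50.4% covered by H3K36me3 at 11-12 h and 51.0% at 3-4 h. It is the gene that took the largest part of its own region, 1616 of 2531 bp at 11-12 h and 1864 of 2768 bp at 3-4 h. A second region, mostly over RpL9, a ribosomal protein gene, reached 228 bp into aub at 11-12 h and ended 248 bp short of it at 3-4 h. Within the 3579 bp that belong to aub alone, 49.3% was covered at 11-12 h and 49.9% at 3-4 h.

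The nuclear family member piwi (2L:10982205-10987420), which lies 10.4 kb from aub with TTLL4A between them, had 26.1% of its body covered at 11-12 h and 24.4% at 3-4 h. That cover came from a region that extends out of SCAR, an actin regulator gene, and spanned 10979804 to 10983564 at 11-12 h and 10980213 to 10983478 at 3-4 h. It put 1169 bp (23.3%) of the piwi bases that no other coding gene shares under H3K36me3 at 11-12 h and 1083 bp (21.6%) at 3-4 h. On the other side a region lay 379 bp from piwi at 11-12 h and 373 bp at 3-4 h; at 11-12 h it was 7847 bp long and mostly over TTLL4A, and at 3-4 h it was 2014 bp long and mostly over CG12253. TTLL4A itself was 85.2% covered at 11-12 h and 85.8% at 3-4 h, with other regions along it.

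**Figure D2:**
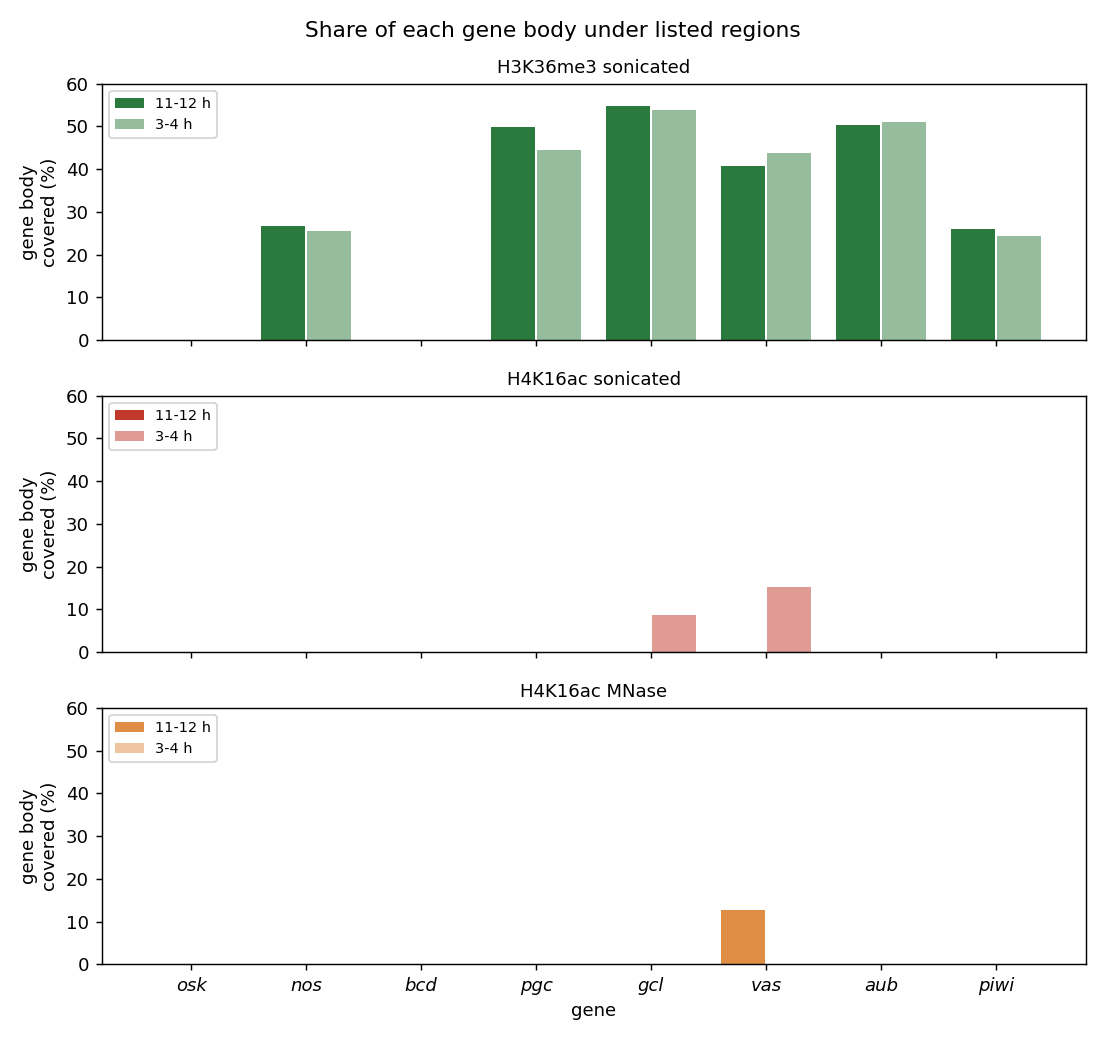
Percent of the gene body under listed regions for each of the 8 genes, in panels for H3K36me3 and H4K16ac on sonicated chromatin and H4K16ac on MNase chromatin, dark bars at 11-12 h and pale bars at 3-4 h; each bar is 1 list and has no error. H3K36me3 covers gcl most and osk and bcd not at all at both stages, and H4K16ac is present only at gcl and vas.

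The 6 covered genes stood in 1 order at both stages by share under H3K36me3, gcl, aub, pgc, vas, nos and piwi; without replicates it is unknown which neighbours in that order differ beyond error. The signed difference, 11-12 h minus 3-4 h, had a median of 1.05 points over the 6. Over the 5665 autosomal genes with H3K36me3 at both stages its median was 0. In absolute size the largest difference among the 6 was 5.51 points, and the median over the 5665 genes was 1.49 points. Cover of the 6 was partial: their median was 45.3% at 11-12 h and 44.1% at 3-4 h, against 92.3% and 94.0% over those 5665 genes. Among all autosomal genes with a region, 32.1% at 11-12 h and 30.9% at 3-4 h had under 60% of the body covered, as all 6 members did. Only at aub did the member hold more of an H3K36me3 region over it than any other gene did; elsewhere the leading gene was Nsun5, Gp150, stmA, SCAR or RpL9, and at vas the overlapping gene solo held as much of each region as vas did.

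Where an H3K36me3 region near a member had a single partner at the other stage, its ends were compared; the split region of vas and the region beside piwi over CG12253 and TTLL4A, which ended at 10995645 at 11-12 h and at 10989806 at 3-4 h, had none and were left out. At 8 regions over or within 2 kb of nos, pgc, gcl, vas, aub and piwi, the ends differed by 6 to 475 bp. Over 2384 such autosomal pairs the median shift of an end was 165 bp, and 75.1% of ends moved by at most 300 bp. The largest shifts at these 8 were the end of the RpL9 region toward aub, which began 475 bp nearer at 11-12 h, and the far end of the SCAR region at piwi, 409 bp farther out at 11-12 h.

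Sonicated H4K16ac was listed over none of the 8 genes at 11-12 h and over 2, gcl and vas, at 3-4 h. Among autosomal genes 21.9% had a region at 11-12 h and 32.9% at 3-4 h. Both members were thus among the genes with a region at the early stage alone, 13.4% of the autosomal total; 0 members and 2.34% of autosomal genes had one at the late stage alone, and 0 members and 19.5% at both. Of the autosomal genes with a region at 3-4 h, 40.7% had none at 11-12 h.

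At gcl the sonicated H4K16ac region of 3-4 h, 8722909 to 8724667, covered 410 bp (8.65%) of the gene at its lower-coordinate end. The region of 11-12 h, 8722802 to 8724054, stopped 204 bp short of gcl and lay mostly in CG14767. The 2 regions differ by 613 bp at the end toward gcl, against a median shift of 223 bp over 1101 autosomal pairs, 63.6% of whose ends moved by at most 300 bp. So at gcl the mark stood at the same place at both stages and differed in how far it reached.

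At vas 15.3% of the body was covered by sonicated H4K16ac at 3-4 h and 0% at 11-12 h, when the nearest region was 50578 bp away. One region of 3-4 h (15059731-15061830) lay mostly in TfIIS, the transcription elongation factor gene, and took 175 bp of vas. The other (15066871-15068634) lay inside vas, solo and vig. On MNase chromatin vas had 12.6% at 11-12 h and 0% at 3-4 h, from 1 region (15066812-15068410) that also lies inside vig. These regions of different stage and preparation share 1540 bp, 96.3% of the MNase region and 87.3% of the sonicated one, so the order of the stages at vas turned round between the preparations; digestion differed between the stages on MNase chromatin, and its part was not tested. In the widest 50% of each list the difference at vas (11-12 h minus 3-4 h) was -1.38 points on sonicated chromatin and 0 on MNase chromatin, against -15.3 and 12.6 points over all regions. No H4K16ac lay on the 2178 bp that vas shares with no other coding gene. With solo set aside, 175 bp (3.32%) of the 5270 bp outside vig were under sonicated H4K16ac at 3-4 h, and 0 bp under MNase H4K16ac.

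On MNase chromatin vas was the 1 member with H4K16ac at 11-12 h, and there was none at 3-4 h, beside 14.2% and 9.01% of autosomal genes. As a region of 11-12 h only it compares with 8.37% of autosomal genes; 3-4 h only held 0 members against 3.19%, and both stages 0 against 5.82%. The other 7 genes had no H4K16ac from MNase chromatin at either stage. The median share of the gene body under H4K16ac was 0 over the 8 genes and over all autosomal genes, in both preparations and at both stages.

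Within 2 kb, sonicated H4K16ac reached 3 members at 11-12 h, nos, gcl and aub, and 4 at 3-4 h, with vas added; the autosomal shares were 31.8% and 43.5%. MNase H4K16ac was within 2 kb of 3 members at 11-12 h, nos, vas and aub, and of none at 3-4 h, against 23.9% and 16.5%. The regions at nos and aub lay in neighbouring genes, and those at gcl and vas are described above. Beside nos they lay over Nsun5 and CG42359, 1125 bp off at 11-12 h and 846 bp off at 3-4 h on sonicated chromatin, and 1424 bp off at 11-12 h on MNase chromatin, where the nearest of 3-4 h was 66966 bp away. Beside aub they lay over RpL9 and Nup154, at 1588 bp at 11-12 h and 1766 bp at 3-4 h on sonicated chromatin, and at 1798 bp at 11-12 h against 21715 bp at 3-4 h on MNase chromatin, just inside the distance. So within 2 kb of both nos and aub a sonicated region was listed at both stages and an MNase region at 11-12 h only. Digestion differed between the stages on MNase chromatin, and its part was not tested. piwi and pgc had no H4K16ac within 2 kb: piwi was 5053 bp from the nearest sonicated region at 11-12 h and 4755 bp at 3-4 h, and pgc 77653 and 77586 bp. H3K36me3 within 2 kb was found at the same 6 members as over the body, at both stages, beside 61.5% of autosomal genes at 11-12 h and 60.9% at 3-4 h.

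**Figure D3:**
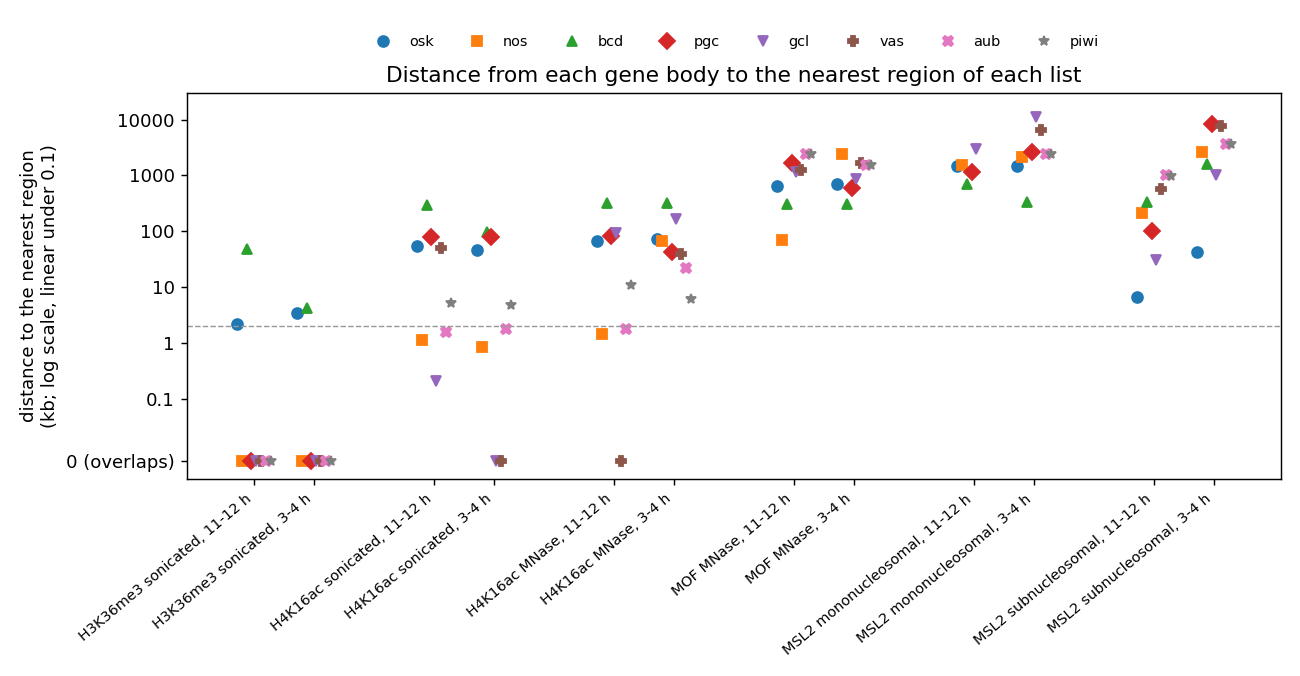
Distance in kb from each gene body to the nearest region of each of the 12 lists, on a log scale that is linear under 0.1 kb, with the 11-12 h list left of the 3-4 h list for each signal; the dashed line marks 2 kb, symbols are genes, and a gene is missing where a list has no region on its arm. H3K36me3 lies at 0 for 6 genes, whereas no MOF or MSL2 region comes within 2 kb of any of them.

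MOF, its partner MSL2 and the members did not meet in these lists. MOF regions lay over 0 of 8 members at 11-12 h and 0 at 3-4 h, where 1.22% and 0.395% of autosomal genes had one, and within 2 kb of 0 members, where 2.36% and 0.670% had one. MSL2 mononucleosomal regions lay over 0 members at both stages, beside 0.0687% of autosomal genes at 11-12 h and 0.0515% at 3-4 h, and within 2 kb of 0, beside 0.103% and 0.0515%. MSL2 subnucleosomal peaks lay over 0 members, beside 0.756% at 11-12 h and 0.0429% at 3-4 h, and within 2 kb of 0, beside 1.67% and 0.103%. Against shares this low, 0 of 8 says nothing particular about the members. The closest MOF region to any member was 68230 bp from nos at 11-12 h, where the nearest of 3-4 h was 2460876 bp away. Lists without scores cannot show that a protein was absent from a gene.

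Other genes of the same processes, in lists chosen with earlier results of these data known, were set beside the members. Of 29 autosomal genes of the piRNA pathway, 22 had H3K36me3 at 11-12 h and the same number at 3-4 h (75.9%), with none at 1 stage only. Over all autosomal genes the shares were 51.5% and 50.8%. The median cover of the 29 was 56.5% at 11-12 h and 61.1% at 3-4 h. Of these 29, sonicated H4K16ac was listed over 8 (27.6%) at 11-12 h and 15 (51.7%) at 3-4 h, beside 21.9% and 32.9% of autosomal genes. At 3-4 h only it lay over 7 of the 29 (24.1%), beside 13.4% of autosomal genes. At 11-12 h only it lay over 0, beside 2.34%. The 7 at 3-4 h only were arx, Panx, mael, Nbr, Hen1, vret and spn-E. arx and Panx act with Piwi in nuclear silencing; arx was covered 0% at 11-12 h and 100% at 3-4 h, and Panx 0% and 63.7%. mael, another factor of that step, had 0% at 11-12 h and 37.6% at 3-4 h, and Nbr, an exonuclease that trims small RNAs, 0% and 33.8%. On MNase chromatin mael went the other way, with H4K16ac over 17.4% at 11-12 h and 0% at 3-4 h. There vret had 9.44% at 11-12 h and 28.0% at 3-4 h, and Panx 0% and 49.6%. arx, Nbr, Hen1 and spn-E had no MNase H4K16ac at either stage. AGO3, the Piwi family partner of Aub, had no H3K36me3 at either stage, and 0.740% of its long body under sonicated H4K16ac at 11-12 h and 1.86% at 3-4 h. In MNase lists the pathway had 7 genes (24.1%) at 11-12 h and 5 (17.2%) at 3-4 h, beside 14.2% and 9.01% of autosomal genes. The preparations thus ran opposite ways here as over all autosomal genes. Bootlegger was named in the list and found no match in the gene table.

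Genes of germ plasm assembly and maternal mRNA localisation numbered 21 on the autosomes, of which 18 (85.7%) had H3K36me3 at 11-12 h and 15 (71.4%) at 3-4 h. The autosomal shares were 51.5% and 50.8%. tud stands in both this list and that of the piRNA pathway, so the 2 are not separate. BicD, egl and capu were listed at 11-12 h only (14.3%, beside 2.84% of autosomal genes). BicD and egl encode partners that carry mRNAs along microtubules; their cover was 30.3% and 17.3% at 11-12 h and 0% at 3-4 h for both. Sonicated H4K16ac lay over 5 of the 21 (23.8%) at 11-12 h and 11 (52.4%) at 3-4 h, beside 21.9% and 32.9% of autosomal genes. At 3-4 h only it lay over 28.6% of the 21, beside 13.4% of autosomal genes. The 6 at 3-4 h only were me31B, tral, exu, stau, brat and orb; me31B, a repressor of stored mRNAs, had 0% at 11-12 h and 50.1% at 3-4 h, and stau, which binds osk and bcd mRNAs, 0% and 12.1%. MNase H4K16ac lay over 3 of the 21 (14.3%) at 11-12 h and 1 (4.76%) at 3-4 h, beside 14.2% and 9.01% of autosomal genes. The median H3K36me3 cover of the 21 was 30.3% at 11-12 h and 23.9% at 3-4 h.

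Of 18 autosomal genes of maternal patterning and egg activation, 9 (50.0%) had H3K36me3 at 11-12 h and 8 (44.4%) at 3-4 h. The shares of all autosomal genes were 51.5% and 50.8%. The median cover of the 18 was 0.496% at 11-12 h and 0% at 3-4 h. H3K36me3 lay over 1 of the 18 (5.56%) at 3-4 h only and over 2 (11.1%) at 11-12 h only, beside 2.11% and 2.84% of autosomal genes. The 1 was hb, whose maternal mRNA is repressed by Nanos and which is transcribed anew under Bicoid. hb had 0% at 11-12 h and 37.5% at 3-4 h. The 2 were ea, with 5.06% at 11-12 h and 0% at 3-4 h, and pip, with 0.993% and 0%. Sonicated H4K16ac lay over 1 of the 18 (5.56%) at 11-12 h and 2 (11.1%) at 3-4 h, beside 21.9% and 32.9% of autosomal genes. Both genes of 3-4 h had it at that stage only, as did 13.4% of autosomal genes. plu, a cell cycle regulator of the egg, had sonicated H4K16ac over 0% of its body at 11-12 h and 100% at 3-4 h, and ea, a protease of dorsal-ventral patterning, 0% and 79.5%. cact, the inhibitor of Dorsal, had 7.59% at 11-12 h and 0% at 3-4 h. Of 6 autosomal genes of germ cell migration and later germ line, 4 had H3K36me3 at 11-12 h and 3 at 3-4 h; wun2, which guides germ cells, had 14.1% at 11-12 h and 0% at 3-4 h. bgcn, a differentiation factor, was the only 1 of the 6 with sonicated H4K16ac, over 0% of its body at 11-12 h and 31.0% at 3-4 h. On MNase chromatin bgcn had H4K16ac over 17.7% at both stages.

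**Figure D4:**
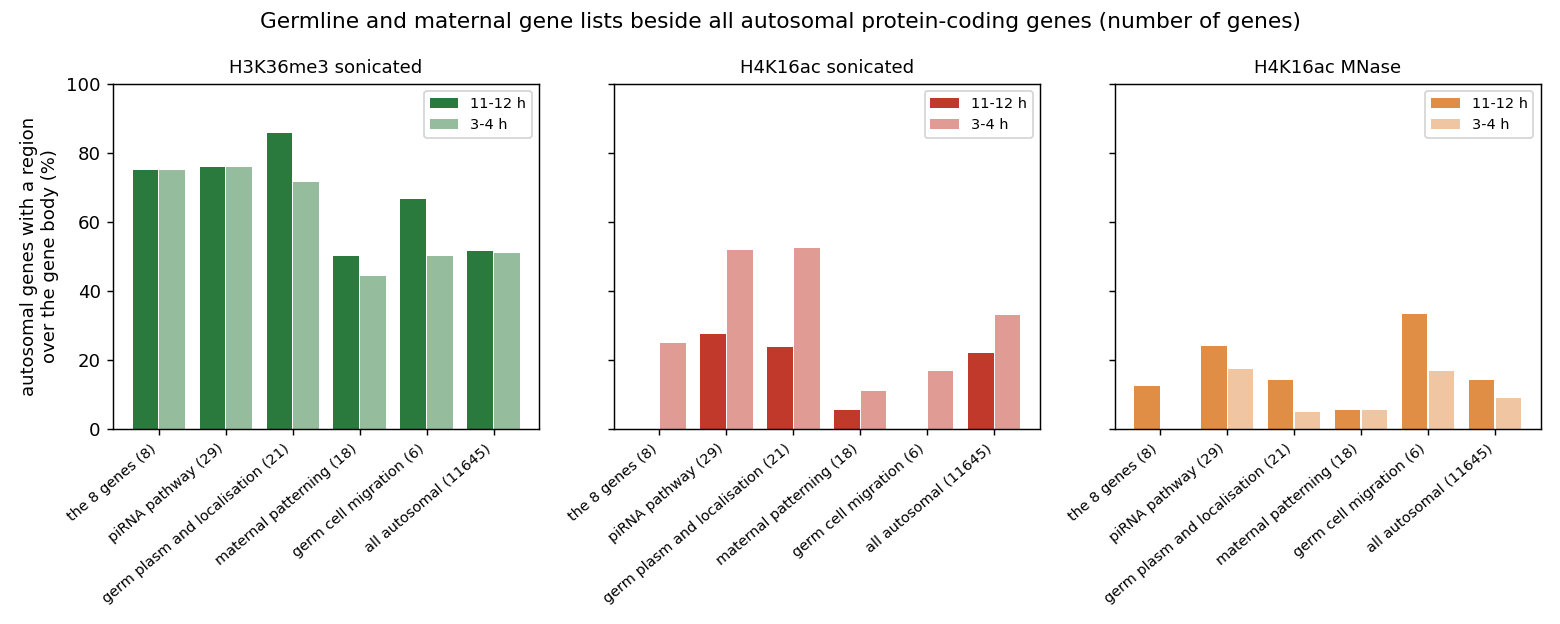
Percent of autosomal genes with a region over the gene body, for the 8 genes, 4 lists of related genes and all 11645 autosomal protein-coding genes, in panels by signal, dark bars at 11-12 h and pale bars at 3-4 h; the number of genes is in brackets and bars have no error. Sonicated H4K16ac was lower at 11-12 h in each of these sets, and the same is seen over all autosomal genes.

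MOF and MSL2 appeared at related genes that are X-linked and at no autosomal gene of these 4 lists. Of their 12 X-linked genes, 6 had MOF at 11-12 h and 4 at 3-4 h, and 0 and 2 had MSL2 mononucleosomal regions. Over all 13842 protein-coding genes, 1343 had MOF at 11-12 h, 142 of them autosomal, and 1112 at 3-4 h, 46 of them autosomal. MSL2 mononucleosomal regions lay over 461 genes at 11-12 h, 8 of them autosomal, and 397 at 3-4 h, 6 of them autosomal. Such regions thus lie mostly on the X. The counts over the 12 were not set beside the share of all X-linked genes, so they are not read as a trait of these lists. wisp, a poly(A) polymerase of the egg, was covered 100% by MOF at both stages and by MSL2 mononucleosomal regions 0% at 11-12 h and 41.8% at 3-4 h. png, a kinase of egg activation, had MOF over 100% of its body at 11-12 h and 0% at 3-4 h. The germline transcription factor gene ovo had MOF over 5.58% at 11-12 h and 21.6% at 3-4 h, and MSL2 over 0% and 8.83%. Tre1, a receptor for germ cell migration, had MOF over 38.6% at 11-12 h and 37.9% at 3-4 h; fs(1)Yb had 15.2% and 5.77%, and Imp 14.3% and 0%. All 8 members are autosomal, so these values have no counterpart among them.

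Likeness was sought only among the genes of the chosen gene lists, not among all autosomal genes, so the nearest genes could come from nowhere else. By the sum of absolute differences in percent covered over the 12 lists, nos and piwi were most like tapas, at 8.11 and 6.19 points, and then shu. squ was nearest to pgc (11.8 points) and to aub (17.9 points), papi to gcl (19.4 points) and del to vas (32.3 points). The others among the nearest 3 were par-1, del, squ, stau, papi and alphaTub67C. Over the 12 lists, nos, pgc, aub and piwi had 1 pattern, H3K36me3 at both stages and nothing else, shared by 1804 other autosomal genes (15.5%) each. The gcl pattern was shared by 942 (8.09%) and that of vas by 157 (1.35%).

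The stages were checked with genes known for early zygotic transcription and for muscle and nerve. H3K36me3 lay over 1 of 18 early zygotic genes at 11-12 h and 6 at 3-4 h, with hry, Kr, odd, sala and zld at 3-4 h alone, and over 5 of 15 muscle and neural genes at 11-12 h and 4 at 3-4 h, a difference of 1 gene that says little about the stage. Both sets lay below the share of all protein-coding genes of the 5 arms, 52.1% at 11-12 h and 51.2% at 3-4 h. The lists held 4075 H3K36me3 regions at 11-12 h and 3771 at 3-4 h, 2335 and 2885 sonicated H4K16ac regions, and 1863 and 1520 MNase H4K16ac regions, and the part of list length in the counts over genes was not tested.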

How the data were processed

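Per the labels, 1 region list stands for all replicates of a group. Per the submitters' processing notes, the authors used Bowtie2 2.2.9, SAMtools and HOMER on build dm6; for the role and settings of each, the thresholds and the use of inputs, the sources used here give nothing. The deposited files hold chromosome, start and end only, so depth per sample is unknown. Gene spans came from RefSeq on Release 6 (the assembly of dm6), without strand or exons, so neither promoters nor exons were told apart and no sequence is shown. Positions count from 1. A gene was counted with at least 1 bp of overlap, and nearness was 2 kb from the gene body. Gene symbols were matched exactly, then by synonym; nos was set by hand to nanos, since another gene has the same synonym. The members and gene lists were chosen with earlier results of these data known. All 8 members are named; related genes were named by status at 1 stage only, by change of cover, or, if X-linked, by MOF or MSL2. The nearest genes by cover come from the same lists. Interval arithmetic was tested on simulated regions. Python 3.11.15, numpy 2.4.6 and matplotlib 3.10.9 were used. The planned search for motifs in promoters was left out for want of sequence.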

Additional observations from a re-analysis of the deposited data

Results flagged for a closer look

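H4K16ac at vas went opposite ways between the stages in the 2 preparations: the covered share of the gene body differed by -15.3 points on sonicated chromatin and by 12.6 points on MNase chromatin (11-12 h minus 3-4 h). This difference was not tested, since each value comes from 1 list. In the widest 50% of each list the values were -1.38 and 0 points. None of this H4K16ac lay on the 2178 bp of vas that no other coding gene shares. With solo, which lies wholly within vas, set aside, 175 bp (3.32%) of the 5270 bp outside vig were under sonicated H4K16ac at 3-4 h. The shares of all autosomal genes with a region also ran opposite ways. They were 21.9% at 11-12 h and 32.9% at 3-4 h on sonicated chromatin, and 14.2% and 9.01% on MNase chromatin. The pattern of vas over the 12 lists was shared by 157 other autosomal genes (1.35%), so it is not particular to vas.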

How the results depend on the processing

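No paired analysis was possible because each list is given for all replicates of its group together, and for the same reason no list without a replicate could be made. Of 165 counts and medians recomputed, 140 stayed within 1.5 times (counts) or 5 points (medians), and none reversed. The 140 include every MOF and MSL2 count, which was 0 at the main setting and at each alternative and had little room to move. All 25 that moved were counts of H3K36me3 or H4K16ac. A count cannot change sign, and the H4K16ac medians were 0 at the main setting in both preparations. Only the H3K36me3 median, 0.474 points, therefore had a sign to reverse. With at least 50% of the gene body required, H3K36me3 was over 2 members at 11-12 h and 2 at 3-4 h, against 6 each; sonicated H4K16ac of 3-4 h went to 0, also as 3-4 h only, and MNase H4K16ac of 11-12 h to 0, also as 11-12 h only. In the widest 50% of each list, H3K36me3 was over 2 members at 11-12 h and 3 at 3-4 h (1 at 3-4 h only) and within 2 kb of 3 at each stage; sonicated H4K16ac was over 1 at 3-4 h (1 at 3-4 h only) and within 2 kb of 0 at 11-12 h and 2 at 3-4 h; MNase H4K16ac of 11-12 h was over 0 (0 at 11-12 h only) and within 2 kb of 0. With 1 kb added to genes, sonicated H4K16ac of 11-12 h was over 1 member, and at a distance of 1 kb it and the MNase list of 11-12 h were each near 1. Counting only bases of the member alone, an alternative chosen after seeing the data, left sonicated H4K16ac of 3-4 h over 1 member (gcl, 1 at 3-4 h only) and MNase H4K16ac of 11-12 h over 0 (0 at 11-12 h only). It also left H3K36me3 over 4 members at each stage, against 6, with pgc and vas lost. That change lies at the limit of 1.5 times and was counted as no move. Of 72 values of single genes, 4 moved by 5 points or more, all in the widest 50% of each list: at vas H3K36me3 to -43.7 points from -3.06, sonicated H4K16ac to -1.38 from -15.3 and MNase H4K16ac to 0 from 12.6, and at gcl sonicated H4K16ac to 0 from -8.65. H3K36me3 at aub turned from -0.547 to 4.21 points with 1 kb added. The cause of these moves was not tested beyond the setting itself.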
